A study of Homo sapiens with 12 samples.

Results

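The acute-phase and chitinase-like secreted proteins are a set of 9 genes whose products leave the cell and are known as markers of inflammation: SAA1, SAA2, SAA4, LCN2, HP, ORM1, PTX3, CHI3L1 and CHI3L2. They were chosen by gene symbol from the 28901 named genes of the deposited count table, with values of these same libraries already known. Their differences between groups, and whether they passed the call rule used for all genes, are therefore a description of these libraries and no independent evidence, and their p-values are not given. Of the 9 genes, 6 were measured in every library, SAA4 was detected at a low level in linc-ADAIN knockdown (KD) libraries, and LCN2 and ORM1 were at or near 0.

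Adipocytes had been differentiated for 14 days from ASC52telo hTERT, a human adipose stromal cell line kept dividing by telomerase, and were measured by RNA-seq. The cells carried a lentiviral vector with ZsGreen and either a scramble shRNA or an shRNA against linc-ADAIN, a long intergenic non-coding RNA of adipose tissue, and ZsGreen-positive cells had been sorted. The 4 groups were scramble control, scramble control with lipopolysaccharide (LPS), linc-ADAIN KD, and linc-ADAIN KD with LPS, at 3 libraries each, and LPS, a bacterial cell wall component, was given at 100 ng/mL for 4 h. All 4 groups share the line, the vector, and a differentiation and maintenance medium with insulin and the glucocorticoid dexamethasone, and each arm is 1 hairpin in 1 sorted population. The 3 libraries of a group are triplicates of 1 experiment, and the labels do not say that they came from separate cultures, so that every SD, SE and p-value here measures only the spread within that experiment. linc-ADAIN RNA was not analysed here, so the knockdown itself was not checked in these libraries, and KD means the libraries labelled with the linc-ADAIN shRNA.

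Acute-phase proteins are secreted, mostly by the liver, when interleukin-6 and interleukin-1 reach hepatocytes, and these cytokines act through the transcription factors STAT3, C/EBP and NF-kappaB. Adipocytes make several of the same proteins, and serum amyloid A, haptoglobin and lipocalin-2 are known as adipokines that increase in obesity. PTX3 is a long pentraxin made at sites of inflammation rather than in liver, and CHI3L1 and CHI3L2 are members of the chitinase family that bind chitin but have lost the enzymatic activity.

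Counts on named genes ranged from 28.4 to 53.8 M (units of 1e6) between libraries. Levels are given as CPM (counts per 1e6 after TMM scaling, a correction of library size for composition). A gene was called when the adjusted p of edgeR's quasi-likelihood F test was below 0.05 over all genes tested and the difference was at least 2-fold. Log2 fold changes are given with their standard error (SE). Markers of adipocytes were present, although LPL had 0 to 82 counts and LEP 0 to 21 counts per library. The summed level of 8 adipocyte markers was 3130 to 4348 CPM in scramble control, 3638 to 4212 CPM in scramble control with LPS, 619 to 1826 CPM in KD and 501 to 1176 CPM in KD with LPS, and KD library 3 was the lowest of its group in both LPS states.

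linc-ADAIN KD was accompanied by higher serum amyloid A and CHI3L1 and lower HP, with and without LPS. In KD against scramble control without LPS, the 6 members with counts in every library were tested, 3 were called higher (CHI3L1, SAA1 and SAA2) and 1 was called lower (HP). SAA4 passed the filter of 10 counts in total only through the KD libraries, since it was at 0 in scramble libraries, and its call is not counted here. Over all genes tested in that comparison, 4.28% were called higher and 3.49% were called lower. With LPS in both arms, CHI3L1, SAA1 and SAA2 were again called higher and HP lower, where 4.58% of all genes tested were called higher and 3.9% lower. LPS called none of the 6 members in scramble control, where 1.4% of all genes tested were called higher and 1.28% lower. There 1 member, PTX3, passed the adjusted p in both edgeR and DESeq2 but was below 2-fold in both, so that neither tool called it. In KD, LPS called PTX3 higher and no member lower among these 6. SAA1 and SAA2 passed the adjusted p of edgeR there but were below 2-fold, so that they were not called. Over all genes tested in that comparison, 1.3% were called higher and 0.946% lower. Since known values chose the members, nothing is read from these shares. The median log2 fold change of the 6 members was 1.41 in KD without LPS, 1.84 in KD with LPS, 0.12 for LPS in scramble control and 0.30 for LPS in KD, and over all genes tested the medians lay between 0.01 and 0.03. The KD comparison without LPS and the LPS comparison in scramble control share the scramble libraries, and likewise for the other pairs of comparisons, so that they are not independent of each other.

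**Figure D1:**
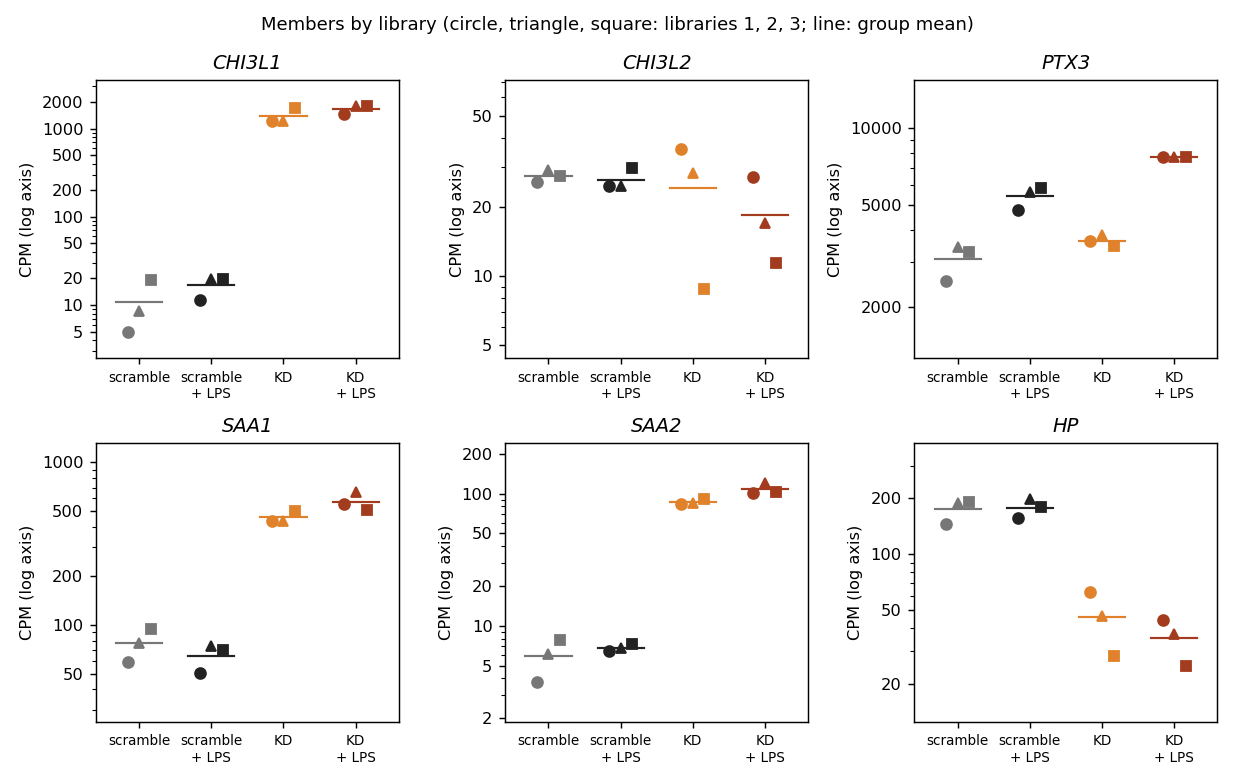
Level of 6 members in each of the 12 libraries, in CPM on a log axis, by group; each point is a library and each line a group mean. For CHI3L1, SAA1 and SAA2 every KD library lies above every scramble library, for HP every KD library lies below, and PTX3 is highest in KD with LPS, at 7688 to 7698 CPM.

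CHI3L1, also known as YKL-40, is a secreted glycoprotein of macrophages, chondrocytes and other mesenchymal cells. It lies on chromosome 1 of GRCh38 between 203178931 and 203186704 on the minus strand (GENCODE release 44, as for all gene positions here). The 250 bases before its RefSeq start are shown because CHI3L1 had the largest KD difference among the 6 members measured in every library, and those of PTX3 because it was the member called after LPS. RefSeq promoters of GRCh38.p14 were at hand for 6 of the 9 members. SAA1, SAA2 and HP have no entry. Both strands of each window were searched for the C/EBP motif TTNNGNAA, the STAT motif TTCNNNGAA, the TATA box TATAAA and the kappa-B motif, and capitals mark the matches. CHI3L1 is read from chr1:203186705-203186954 on the minus strand and PTX3 from chr3:157436600-157436849 on the plus strand, both 5′ to 3′.
CHI3L1: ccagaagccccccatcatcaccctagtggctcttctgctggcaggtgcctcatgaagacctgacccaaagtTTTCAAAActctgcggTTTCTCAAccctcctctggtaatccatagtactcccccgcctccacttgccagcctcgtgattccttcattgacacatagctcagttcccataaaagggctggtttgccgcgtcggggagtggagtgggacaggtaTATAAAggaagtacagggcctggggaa
PTX3: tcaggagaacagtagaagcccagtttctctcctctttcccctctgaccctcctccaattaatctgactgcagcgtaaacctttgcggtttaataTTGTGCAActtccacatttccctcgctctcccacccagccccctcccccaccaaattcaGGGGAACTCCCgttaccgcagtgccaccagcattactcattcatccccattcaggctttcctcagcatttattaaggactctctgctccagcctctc
In CHI3L1 the capitals are C/EBP matches at 179 to 172 and 163 to 156 bases before the start and a TATA box at 27 to 22 bases before it. In PTX3 they are a C/EBP match at 156 to 149 bases and a pair of overlapping kappa-B matches at 97 to 88 and 96 to 87 bases before the start. Neither window holds a STAT match. Among 35116 RefSeq promoter windows of the same length, 33.2% hold a C/EBP match, 10.7% a TATA box, 6.57% a STAT match and 5.21% a kappa-B match. A kappa-B match was also present in the windows of LCN2, at 175 to 166 bases before the start, and of CHI3L2. The windows of SAA4 and ORM1 hold C/EBP matches, 6 in SAA4, and no kappa-B match. A match describes the letters of the window and does not show a bound site.

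In scramble control CHI3L1 was at 4.96, 8.53 and 19.3 CPM (261, 449 and 898 counts), and with LPS at 11.3, 19.9 and 19.5 CPM. In KD it was at 1220, 1231 and 1713 CPM (42145, 65853 and 69957 counts), and in KD with LPS at 1463, 1789 and 1782 CPM. The lowest KD library was far above the highest scramble library in both LPS states. Scramble control had a mean of 10.9 ± 7.48 CPM and KD of 1388 ± 282 CPM (SD, n = 3 each), giving a log2 fold change of 7.00 (SE 0.43), or 128-fold. With 1 library left out this value lay between 6.65 and 7.68, and the highest was without scramble library 3. With LPS the means were 16.9 ± 4.83 and 1678 ± 186 CPM (SD, n = 3 each), for a log2 fold change of 6.65 (SE 0.20), or 100-fold. Relative to their mean, the scramble libraries differed among themselves more than the KD libraries did, and scramble library 3 had more than the other two. For LPS the log2 fold change of CHI3L1 was 0.64 (SE 0.38) in scramble control and 0.28 (SE 0.12) in KD, and the groups overlapped in both. The LPS value in scramble control rested on 1 library, because without scramble library 3 it was 1.33 (SE 0.29) and passed the call.

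Per kilobase of its canonical transcript, CHI3L1 had 6.26 ± 4.28 CPM in scramble control against 795 ± 161 CPM in KD (SD, n = 3 each). It stood at rank 6304 of 17696 genes with a count in scramble control and at rank 73 of 17288 genes in KD. Markers of cell types known to make CHI3L1 were examined beside it. Of 8 macrophage and leukocyte markers 2 averaged 50 counts per library or more, and their summed level was 57.2 to 60.5 CPM in scramble control, against 88.6 to 116 CPM in KD. PTPRC, the pan-leukocyte marker, had at most 12 counts in any library, and TYROBP was at 0 in all 12. CD68, a lysosomal protein of macrophages, averaged 53.7 CPM in scramble control against 31.2 CPM in KD, so that the higher sum in KD came with CD163. Of 4 chondrocyte markers, the summed level was 144 to 254 CPM in scramble control, against 60.9 to 65.0 CPM in KD. COMP, a cartilage matrix protein, made up most of this sum and fell in KD without LPS (log2 fold change -2.05, SE 0.16). ACAN, the cartilage proteoglycan aggrecan, rose there (log2 fold change 4.52, SE 0.25). COL11A2 was called higher there too, at low counts (log2 fold change 1.31, SE 0.40). With LPS, COL11A2 was not called (log2 fold change 0.94, SE 0.43). COL2A1 had 190 counts in scramble library 1 and at most 11 in any other library, and was at 0 in both LPS groups. The part of these markers in the CHI3L1 difference was not tested.

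CHI3L2, also known as YKL-39, is the closest relative of CHI3L1 among the members and lies on chromosome 1 between 111200771 and 111243440. It was at 25.7, 29.0 and 27.2 CPM in scramble control, 24.7, 24.6 and 29.5 CPM in scramble control with LPS, 35.8, 28.1 and 8.77 CPM in KD, and 27.0, 17.1 and 11.4 CPM in KD with LPS. KD library 3 was the lowest of its group in both LPS states, and the KD libraries overlapped the scramble libraries. The log2 fold change in KD was -0.17 (SE 0.34) without LPS and -0.50 (SE 0.23) with LPS, and it was not called in any comparison. Without LPS, the fits with 1 library left out gave values of CHI3L2 from -0.56 to 0.23, and it was above 0 without KD library 3. The spread of the KD libraries was wide, at 24.2 ± 13.9 CPM, against 27.3 ± 1.62 CPM in scramble control (SD, n = 3 each). Other genes of the glycosyl hydrolase family of chitinases (CHIA, CHIT1, CHID1, CTBS and OVGP1) were 4 of 5 tested in each of the group comparisons, and none was called. In those comparisons 0.946% to 4.58% of all genes tested were called in a given direction, so nothing is read from the lack of calls among so few genes.

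PTX3, which opsonizes microbes and binds complement C1q, lies on chromosome 3 between 157436850 and 157443633 on the plus strand. It was the member with the highest level in every group. It was at 2524, 3437 and 3283 CPM in scramble control and 4795, 5637 and 5815 CPM in scramble control with LPS, and at 3622, 3806 and 3472 CPM in KD and 7698, 7688 and 7688 CPM in KD with LPS. All libraries with LPS were above all libraries without it, and all KD libraries were above all scramble libraries of the same LPS state. The mean in KD was 3633 ± 167 CPM without LPS and 7691 ± 5.62 CPM with LPS (SD, n = 3 each), for a log2 fold change of 1.09 (SE 0.05), or 2.13-fold, which was called. In scramble control the means were 3081 ± 489 and 5416 ± 545 CPM (SD, n = 3 each), for a log2 fold change of 0.82 (SE 0.12), or 1.77-fold, below the 2-fold threshold. The KD differences of PTX3 were small, at a log2 fold change of 0.24 (SE 0.10) without LPS and 0.51 (SE 0.07) with LPS. Per kilobase, PTX3 stood at rank 30 of 17696 genes in scramble control, 17 of 17121 with LPS, 21 of 17288 in KD and 15 of 17169 in KD with LPS. No 31-base stretch of its transcripts in GENCODE release 44 is shared with another gene. All values of shared stretches given here are from that release, which may differ from the one behind the deposited counts.

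Among other pentraxins (NPTX1, NPTX2, NPTXR and PTX4) 2 of 4 were tested. NPTX1, a neuronal pentraxin, fell after LPS in scramble control (log2 fold change -1.47, SE 0.30, adjusted p = 0.0068) and in KD (log2 fold change -2.47, SE 0.34, adjusted p = 0.00018). With LPS in both arms it was also called lower in KD (log2 fold change -1.36, SE 0.46, adjusted p = 0.042). Without LPS the KD difference of NPTX1 was not called (log2 fold change -0.37, SE 0.25). TNFAIP6 encodes TSG-6, the hyaluronan-binding partner of PTX3 in the extracellular matrix. It was at 10.3, 8.03 and 10.1 CPM in scramble control and 222, 226 and 248 CPM with LPS, and at 47.1, 44.8 and 35.3 CPM in KD and 784, 723 and 957 CPM in KD with LPS. TNFAIP6 was called in all 4 comparisons, with log2 fold changes of 2.16 (SE 0.14, adjusted p = 4.9e-07) for KD without LPS, 1.83 (SE 0.10, adjusted p = 1.6e-08) for KD with LPS, 4.63 (SE 0.11, adjusted p = 1.2e-09) for LPS in scramble control and 4.28 (SE 0.13, adjusted p = 2.2e-11) for LPS in KD.

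**Figure D2:**
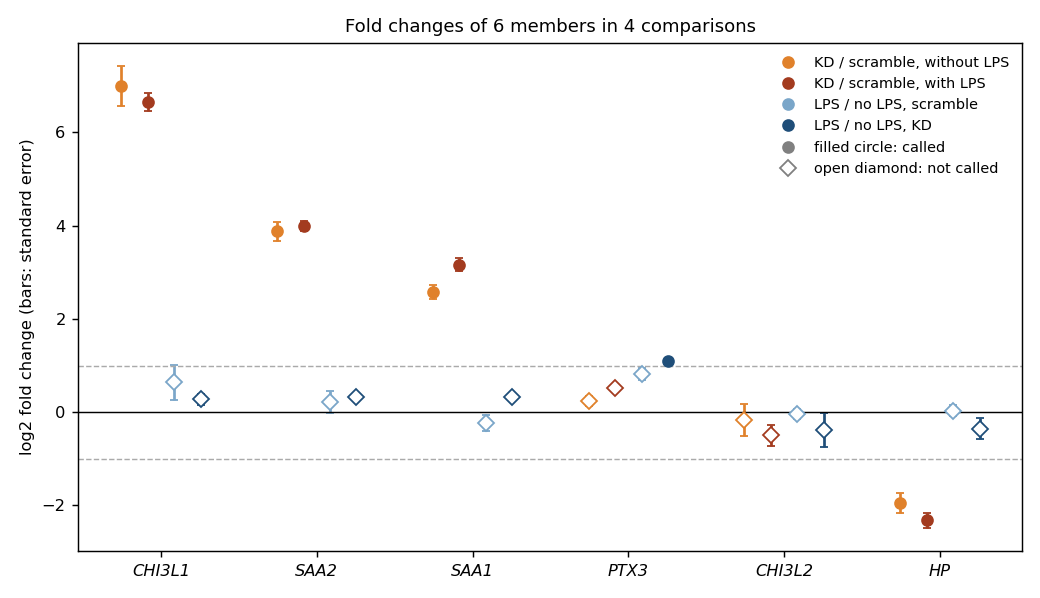
Log2 fold changes of 6 members in the 4 comparisons, with bars for the standard error and dashed lines at a 2-fold difference; filled circles passed the call and open diamonds did not. CHI3L1, SAA2, SAA1 and HP pass it in both KD comparisons, PTX3 only for LPS in KD, at 1.09, and CHI3L2 in none.

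The serum amyloid A genes form a cluster on chromosome 11. SAA1 lies between 18266260 and 18269977 on the plus strand, and SAA2 between 18239223 and 18248668 and SAA4 between 18231355 and 18236802 on the minus strand. SAA1 and SAA2 encode the acute-phase forms, which ride on high-density lipoprotein and attract leukocytes, and SAA4 encodes the constitutive form. SAA1 was at 58.9, 77.2 and 94.8 CPM in scramble control and 50.6, 73.7 and 69.7 CPM with LPS. In KD it was at 437, 437 and 501 CPM, and in KD with LPS at 554, 657 and 506 CPM. The KD and scramble libraries did not overlap. The log2 fold change of SAA1 in KD was 2.58 (SE 0.15), or 5.97-fold, without LPS and 3.16 (SE 0.14), or 8.91-fold, with LPS. After LPS the value was -0.24 (SE 0.17) in scramble control, where the groups overlapped, and 0.33 (SE 0.09), or 1.25-fold, in KD, where they did not overlap, and neither was called.

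SAA2 was at 3.76, 6.15 and 7.81 CPM in scramble control and 6.45, 6.80 and 7.23 CPM with LPS. In KD it was at 83.6, 85.0 and 90.3 CPM, and in KD with LPS at 100.5, 121 and 103 CPM. Again no KD library overlapped a scramble library. The log2 fold change in KD was 3.88 (SE 0.20), or 14.7-fold, without LPS and 3.99 (SE 0.11), or 15.9-fold, with LPS. For LPS it was 0.22 (SE 0.24) in scramble control, where the groups overlapped, and 0.33 (SE 0.09) in KD, where they did not. Neither was called.

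SAA1 and SAA2 are near-identical copies, and the split of reads between them is uncertain. Of the 31-base stretches in SAA1 transcripts 39.5% also occur in SAA2, and 20.0% of those in SAA2 occur in SAA1. Summed into 1 value, SAA1 and SAA2 were at 82.9 ± 20.0 CPM in scramble control, 71.5 ± 12.6 CPM with LPS, 545 ± 40.3 CPM in KD and 680 ± 87.5 CPM in KD with LPS (SD, n = 3 each). The log2 fold change of the sum in KD was 2.72 (SE 0.15) without LPS and 3.26 (SE 0.13) with LPS. SAA2 made up 6.0%, 7.4% and 7.6% of this sum in scramble control and 11.3%, 8.5% and 9.4% with LPS, and 15.3% to 16.3% in KD and 15.4% to 16.9% in KD with LPS. Its share was higher in every KD library than in every scramble library. The mean share was 7.0% ± 0.87 in scramble control and 15.9% ± 0.53 in KD (SD, n = 3 each).

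**Figure D3:**
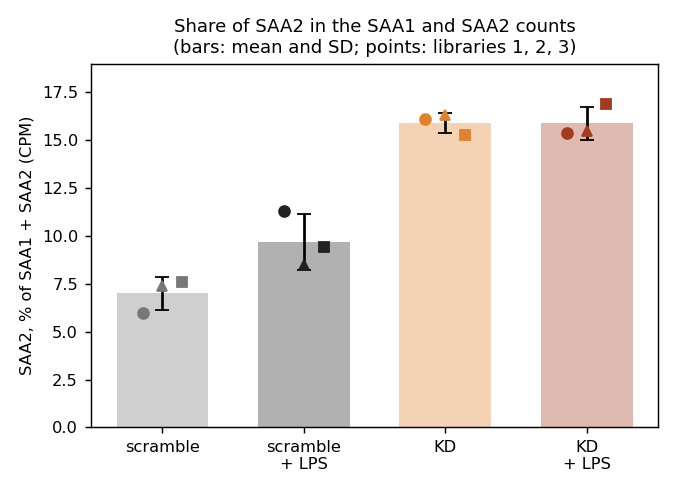
SAA2 as a percent of the SAA1 and SAA2 CPM in each library, by group; bars show the mean and SD over 3 libraries and points the libraries. The 6 scramble libraries lie between 6.0% and 11.3% and the 6 KD libraries between 15.3% and 16.9%.

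SAA4 had 0 counts in all 6 scramble libraries. It had 42, 0 and 6 counts in KD and 24, 38 and 18 counts in KD with LPS. With LPS, against a floor of 3 counts per library, the mean of SAA4 was at least 8.59-fold higher in KD. Without LPS, KD library 1 held most of the counts and KD library 2 was at 0 like the scramble libraries, so that those groups overlapped and no fold is given. SAA4 passed the filter through the KD libraries alone, and its call without LPS was lost in several settings, among them DESeq2 and the fits that left out a scramble library or KD library 3. Without KD library 1 SAA4 fell below the filter of 10 counts. The readthrough gene SAA2-SAA4, which spans both genes, shares 74.8% of the 31-base stretches of SAA4. SAA2-SAA4 had 0 to 14 counts in scramble libraries and 22 to 103 counts in KD libraries, and the counts of SAA4 and the readthrough cannot be separated with certainty. The pseudogene row SAA3P was at 0 in all 12 libraries.

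HP encodes haptoglobin, the plasma protein that captures free hemoglobin, and lies on chromosome 16 between 72054505 and 72061055 on the plus strand. It was at 147, 190 and 192 CPM in scramble control and 156, 199 and 181 CPM with LPS. In KD it was at 62.4, 46.4 and 28.2 CPM, and in KD with LPS at 44.2, 37.2 and 25.1 CPM. All KD libraries were below all scramble libraries. Scramble control had a mean of 176 ± 25.8 CPM and KD of 45.7 ± 17.1 CPM (SD, n = 3 each), giving a log2 fold change of -1.95 (SE 0.22). With LPS the means were 179 ± 21.3 and 35.5 ± 9.67 CPM (SD, n = 3 each), for a log2 fold change of -2.32 (SE 0.16). For LPS the log2 fold change was 0.03 (SE 0.12) in scramble control and -0.35 (SE 0.23) in KD, and the groups overlapped in both. HPR, the haptoglobin-related gene beside HP, shares 16.3% of the 31-base stretches of HP and had at most 49 counts in any library, against 716 to 9989 for HP. With HP and HPR summed the KD log2 fold changes were -1.95 (SE 0.22) and -2.33 (SE 0.16).

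The order of the KD libraries in HP was also their order in the adipocyte markers. In KD the summed adipocyte markers were at 1826, 1390 and 619 CPM in libraries 1, 2 and 3, and in KD with LPS at 1176, 798 and 501 CPM. ADIPOQ, the adipokine adiponectin, fell in KD by 1.39 on the log2 scale (SE 0.34) without LPS and by 2.26 (SE 0.26) with LPS. CHI3L2 was likewise lowest in library 3 of both KD groups. In bulk libraries, fewer cells of a type and less RNA per cell cannot be told apart, and the part of the adipocyte markers in the HP difference was not tested. The summed levels of stromal and endothelial markers were lower in KD as well. The summed level of 5 stromal markers was 2894 to 2960 CPM in scramble control, 2623 to 2801 CPM with LPS, 1823 to 1857 CPM in KD and 1525 to 1653 CPM in KD with LPS. Of these, THY1 and ENG, surface proteins of stromal cells, fell in both KD comparisons, with log2 fold changes of -2.37 (SE 0.11) and -1.36 (SE 0.12) without LPS. The other stromal markers were called in neither KD comparison. Without LPS, PDGFRB was at -0.90 (SE 0.08), PDGFRA at 0.26 (SE 0.07) and NT5E at 0.10 (SE 0.11). The summed level of 4 endothelial markers was 23.6 to 27.0 CPM in scramble control, 15.2 to 17.0 CPM with LPS, 11.3 to 11.7 CPM in KD and 6.38 to 9.20 CPM in KD with LPS, with CDH5 at most 3 counts in any library. Among these VWF and TEK fell in KD without LPS, with log2 fold changes of -2.12 (SE 0.21) and -1.79 (SE 0.19). PECAM1 did not fall there (log2 fold change -0.15, SE 0.16) and its groups overlapped. With LPS, TEK was not called (log2 fold change -0.80, SE 0.23). The part of the stromal and endothelial markers in the differences of the members was not tested. Without library 3 of KD, or of KD with LPS, HP was still called lower. Over the settings that leave out 1 library, its log2 fold change stayed between -2.24 and -1.70 without LPS and between -2.50 and -2.13 with LPS. As for the hepatocyte, the main source of HP in the body, its markers ALB and TTR had at most 13 counts and 0 counts in any library.

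**Figure D4:**
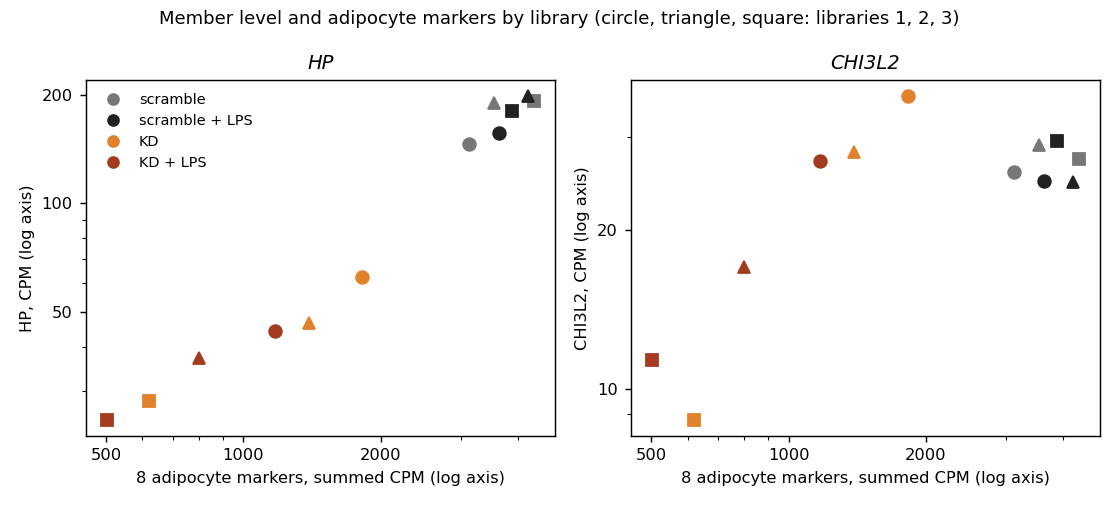
Level of HP (left) and CHI3L2 (right) against the summed CPM of 8 adipocyte markers, both on log axes, 1 point per library and 1 color per group. In the KD groups the libraries with fewer adipocyte marker counts have less HP, down to 25.1 CPM at 501 CPM of markers, and less CHI3L2, and the libraries of a group share its treatment.

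CD163 encodes the receptor that takes up the haptoglobin-hemoglobin complex. It was at 3.15, 5.38 and 4.46 CPM in scramble control and 4.81, 3.25 and 3.33 CPM with LPS, and at 55.4, 68.6 and 81.8 CPM in KD and 54.5, 64.5 and 78.0 CPM in KD with LPS. CD163 thus lay on opposite sides from HP, and its KD and scramble libraries did not overlap. The log2 fold change of CD163 in KD was 3.99 (SE 0.20, adjusted p = 9.8e-08) without LPS and 4.11 (SE 0.18, adjusted p = 2.6e-09) with LPS, and after LPS it was -0.18 (SE 0.25, adjusted p = 0.72) in scramble control and -0.06 (SE 0.14, adjusted p = 0.88) in KD.

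LCN2 and ORM1 were not detectable at this depth. LCN2 encodes lipocalin-2, which sequesters bacterial siderophores, and lies on chromosome 9 between 128149071 and 128153453. It had 0 counts in all 12 libraries, which allows up to 3 counts per library, or 0.0557 to 0.106 CPM of a library's unscaled total. It shares no 31-base stretch with another gene. Neutrophils are known for LCN2, and of 5 neutrophil markers MPO and S100A9 had at most 3 counts in any library. CEACAM8 had at most 5 counts and S100A8 at most 11, whereas ELANE had 6 to 70 counts. ORM1 encodes orosomucoid, a plasma carrier of drugs, and lies on chromosome 9 between 114323098 and 114326479. It had 2 counts in library 3 of scramble control with LPS, 7 counts in library 3 of KD with LPS and 0 in the other 10 libraries. ORM2, its near-identical neighbour, shares 51.9% of the 31-base stretches of ORM1 and had at most 7 counts in a library. Of other lipocalins, APOD, an apolipoprotein of adipose and nervous tissue, had a mean of 154 ± 68.4 CPM in scramble control, against 68.7 ± 18.7 CPM in KD (SD, n = 3 each), and fell in KD without LPS (log2 fold change -1.16, SE 0.29, adjusted p = 0.011), although its groups overlapped.

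Per kilobase of transcript, the order of levels in scramble control was PTX3 (1635 ± 260 CPM), SAA1 (149 ± 34.6), HP (115 ± 16.8), CHI3L2 (19.3 ± 1.14), SAA2 (10.3 ± 3.54) and CHI3L1 (6.26 ± 4.28, SD, n = 3 each). SAA1 and HP were within their spread of each other, and so were SAA2 and CHI3L1. In KD the order was PTX3 (1929 ± 88.8 CPM), SAA1 (885 ± 71.2), CHI3L1 (795 ± 161), SAA2 (150 ± 6.13), HP (29.8 ± 11.1), CHI3L2 (17.1 ± 9.85) and SAA4 (0.721 ± 1.05, SD, n = 3 each). There SAA1 and CHI3L1, and HP and CHI3L2, were within their spread of each other. SAA1 stood at rank 423 of 17696 genes in scramble control and at rank 60 of 17288 in KD, whereas HP stood at rank 540 and at rank 1964.

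The interaction term over all 12 libraries tested whether the KD differences with and without LPS differed. None of the 6 members with counts in every library was called by adjusted p in edgeR or in DESeq2. Of these 1, SAA1, was below 0.05 before adjustment in edgeR, where 1.28% of all genes tested were called in either direction. SAA4 entered that fit through the KD libraries alone. It was at 0 in both scramble groups, so that its interaction could not be estimated and is not counted. On the log2 scale the interaction was 0.58 (SE 0.21) for SAA1, 0.12 (SE 0.23) for SAA2, 0.28 (SE 0.13) for PTX3, -0.35 (SE 0.43) for CHI3L1, -0.37 (SE 0.30) for HP and -0.32 (SE 0.47) for CHI3L2. The LPS values of PTX3 in KD and in scramble control were thus not shown to differ.

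Genes with a pattern most like that of a member were sought by Pearson's correlation of log2 CPM over the 12 libraries among 11811 genes. The libraries share their groups, so these values are a description. Most like SAA1 were A2M (0.995), PROK1 (0.992) and CADM3 (0.991), and most like SAA2 were KCNK15 (0.996), FMO2 (0.995) and SAMSN1 (0.992). CHI3L1 was most like FMO2 (0.995), FMOD (0.994) and KCNK15 (0.994). HP was most like CDK15 (0.996), KCNK3 (0.995) and AOC2 (0.994), and PTX3 was most like CX3CL1 (0.985), EGLN1 (0.978) and CYLD (0.978). CHI3L2 had lower values, with LGALS12 (0.928), SMN1 (0.905) and FBH1 (0.878).

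Other acute-phase proteins were taken as a list of 18 genes, 7 of which averaged 50 counts per library or more. Of 15 tested, 2 rose in KD without LPS and none fell, and 5 rose and 1 fell with LPS. Of all genes tested, 4.28% were called higher and 3.49% lower without LPS, and 4.58% higher and 3.9% lower with LPS. A2M, a protease inhibitor of plasma, had 21.8, 29.5 and 42.4 CPM in scramble control, and in KD 168, 202 and 178 CPM, a log2 fold change of 2.55 (SE 0.19, adjusted p = 1.6e-06), and with LPS the value was 2.90 (SE 0.10, adjusted p = 3.8e-10). ITIH4 rose in KD without LPS from 0.782 ± 0.262 to 2.01 ± 0.621 CPM (SD, n = 3 each), at low counts. CD14, the LPS co-receptor, fell after LPS in scramble control (log2 fold change -1.85, SE 0.49, adjusted p = 0.026) and was higher in KD with LPS than in scramble control with LPS (log2 fold change 2.69, SE 0.51, adjusted p = 0.0014). The other genes called in KD with LPS were CRP, APCS and SERPINA1 (higher) and HPR (lower), named here after their values were seen. Each had fewer than 50 counts per library on average. APCS was at 0 in scramble control with LPS and HPR at 0 in KD with LPS, so each passed the count filter through the other group alone. CRP would not have passed it without the KD libraries. The counts of genes that rose and fell with LPS include the calls of APCS, HPR and CRP, from which nothing is read. CRP, the classic acute-phase pentraxin of liver, had 7, 41 and 34 counts in KD with LPS and 0, 0 and 5 counts in scramble control with LPS. Among negative acute-phase proteins, the retinol carrier RBP4 fell in KD with LPS (log2 fold change -2.46, SE 0.81, adjusted p = 0.039).

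Receptors and partners of the members were 18 genes, of which 16 were tested in KD against scramble control. Without LPS 2 rose (CD163 and TNFAIP6) and 1 fell, and with LPS 4 rose and 2 fell. These counts stand beside 4.28% of all genes tested called higher and 3.49% lower without LPS, and 4.58% and 3.9% with LPS. CD36, a scavenger receptor of serum amyloid A and fatty acids and itself a gene of mature adipocytes, fell by 1.14 on the log2 scale (SE 0.26, adjusted p = 0.006) without LPS and by 1.80 (SE 0.17, adjusted p = 3.6e-06) with LPS. SCARB1, the high-density lipoprotein receptor that also binds serum amyloid A, was below 2-fold without LPS (log2 fold change -0.92, SE 0.11) and fell with LPS (log2 fold change -1.35, SE 0.16, adjusted p = 2.1e-05). The other genes called with LPS were TLR4 and P2RX7, both higher in KD and named after their values were seen. IL13RA2, a receptor of CHI3L1, fell after LPS in scramble control (log2 fold change -1.32, SE 0.19) and was not called by KD.

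Cytokines and receptors known to act upstream of acute-phase genes were 16 genes, 15 of them tested. In KD without LPS 2 rose (IL1B and LIF) and 1 fell (IL1RAP), and with LPS 4 rose (IL6, IL1A, IL1B and LIF) and 3 fell. Of all genes tested, 4.28% were called higher and 3.49% lower without LPS, and 4.58% higher and 3.9% lower with LPS. After LPS, IL6, IL1B and LIF rose in scramble control, and these and IL1A rose in KD. LIF, an interleukin-6 family cytokine that acts through STAT3, rose by KD with a log2 fold change of 1.80 (SE 0.12, adjusted p = 5.3e-07) without LPS. IL1RN, the interleukin-1 receptor antagonist, fell after LPS in scramble control (log2 fold change -1.61, SE 0.14, adjusted p = 1.3e-05) and in KD (log2 fold change -1.65, SE 0.13, adjusted p = 6.9e-07). IL6R, an interleukin-6 receptor named here after its values were seen, was called lower after LPS in scramble control (log2 fold change -1.05, SE 0.26). SAA1, SAA2 and HP were not called after 4 h of LPS in either arm. The part of these cytokines and receptors in the levels of the members was not tested. In KD, SAA1 and SAA2 were nevertheless higher after LPS, below 2-fold, with a log2 fold change of 0.33 (SE 0.09) for each.

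Upstream transcription factors and their inhibitors were 16 genes, all tested. LPS called 8 higher in scramble control and 7 higher in KD, and none lower. Of all genes tested, LPS called 1.4% higher and 1.28% lower in scramble control, and 1.3% higher and 0.946% lower in KD. The KD comparisons called 4.28% higher and 3.49% lower without LPS, and 4.58% higher and 3.9% lower with LPS. The gene lists were chosen with earlier results of these data known, so nothing is read from their counts. NFKBIZ, an inducible nuclear cofactor of NF-kappaB, rose after LPS by a log2 fold change of 1.81 (SE 0.08, adjusted p = 1.9e-07) in scramble control and 2.19 (SE 0.08, adjusted p = 1.6e-10) in KD. NFKB1 and its inhibitor NFKBIA rose in both arms. In KD without LPS 1 gene of the list was called, TSC22D3, a glucocorticoid-induced leucine zipper protein, whose mean was 18.6 ± 1.68 CPM in scramble control against 63.6 ± 4.21 CPM in KD (SD, n = 3 each), with a log2 fold change of 1.78 (SE 0.10, adjusted p = 1.9e-07). In KD with LPS, NFKBIZ (log2 fold change 1.13, SE 0.08) and TSC22D3 (log2 fold change 1.56, SE 0.09) were called higher. FKBP5, another glucocorticoid target, named here after its values were seen, was called lower there (log2 fold change -1.08, SE 0.08).

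**Figure D5:**
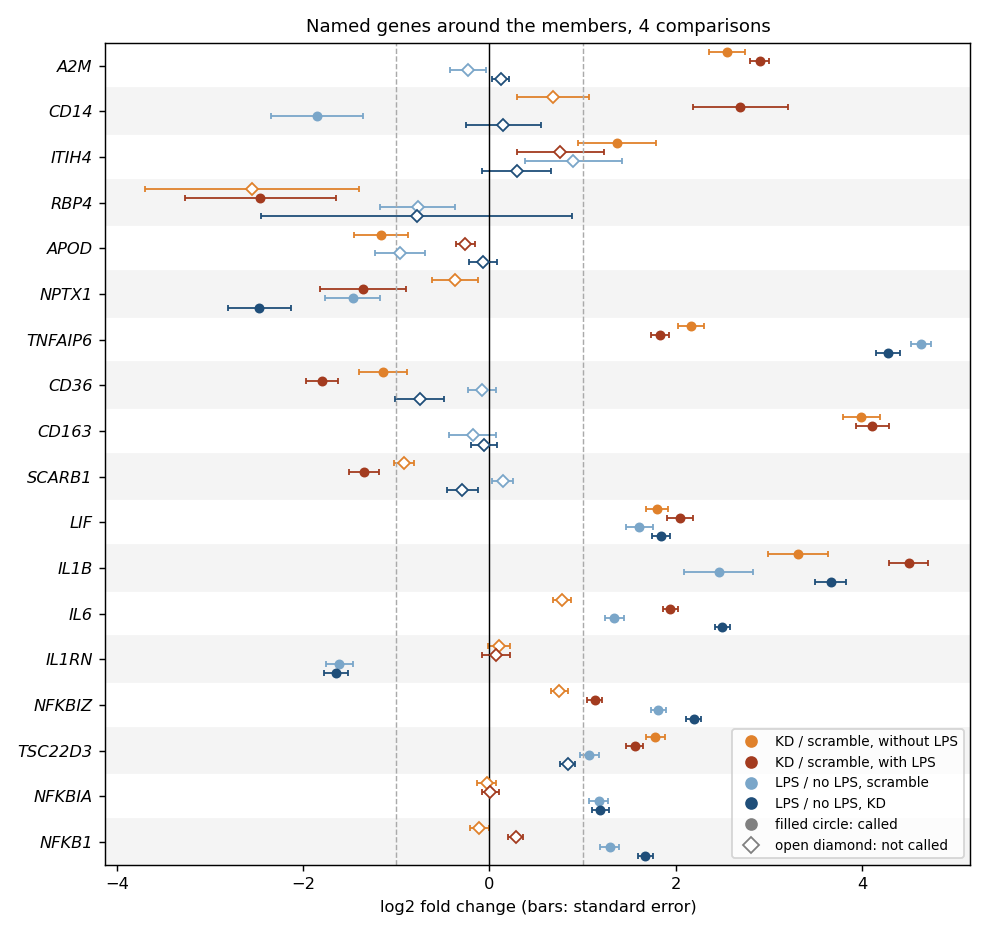
Log2 fold changes of 18 named genes around the members in the 4 comparisons, with bars for the standard error and dashed lines at a 2-fold difference; filled circles passed the call and open diamonds did not. CD163 and A2M pass only in the KD comparisons, NFKB1 and NFKBIA only for LPS, and TNFAIP6, LIF and IL1B in all 4.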

How the data were processed

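RNA-seq of 12 libraries in 4 groups was used. The authors pseudoaligned reads to a kallisto 0.44.0 index of human transcriptomes (GRCh38) and deposited the estimated counts per gene name, not normalized for depth or length. The annotation release of the index is not given in the sources used here. A row without a gene name held 0.235% to 0.306% of the counts and was left out. In R 4.3.3, counts were rounded, and a gene entered a fit if its libraries summed to 10 counts or more. edgeR 4.0.16 did the TMM scaling and the quasi-likelihood F test, and p was adjusted over all genes by Benjamini-Hochberg. Each group comparison used its 6 libraries and the interaction all 12. The SE is the log2 fold change divided by the square root of F. The study used DESeq2, which was run as an alternative (DESeq2 1.42.0). The members and gene lists were chosen with earlier results of these data known. All 9 members are named, with up to 4 genes per list that were called in most comparisons and had a mean of at least 50 counts. Further called genes of the lists, such as FKBP5, IL13RA2, IL1A and IL1RAP, were named after their values were seen. Libraries of a group differed by more than counting noise (chi-square per degree of freedom 17.8 to 45.2). Counts of 0 and floors cover counting error only. The fits were tested on simulated data.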

Additional observations from a re-analysis of the deposited data

Results flagged for a closer look

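In 3 genes of the lists around the members the KD difference changed with LPS by edgeR's interaction test over 12 libraries. Of all genes tested, 1.28% were called by that test, and nothing is read from the number of listed genes called. TLR4, the LPS receptor, had an interaction of 1.09 on the log2 scale (SE 0.24, adjusted p = 0.03), with mean levels of 14.3 and 7.91 CPM in scramble control without and with LPS and 13.7 and 16.0 CPM in KD. IL6 had an interaction of 1.17 (SE 0.13, adjusted p = 0.00014), with 52.5 and 132 CPM in scramble control and 89.9 and 506 CPM in KD. IL1RAP, the shared chain of interleukin-1 receptors, had an interaction of 0.82 (SE 0.14, adjusted p = 0.0072), with 105 and 53.4 CPM in scramble control and 27.6 and 24.6 CPM in KD. No cause was tested.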

How the results depend on the processing

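Of 34 log2 fold changes of members, SAA4 included, 11 were called, and 10 of these kept their direction and call in every alternative run: DESeq2, RLE factors or library size alone in place of TMM, no count filter or filterByExpr, all libraries in 1 fit, related genes summed, a replicate block and each library left out. The exception was SAA4 in KD without LPS. Its call was lost in DESeq2, with the replicate block, and in the fits that left out a scramble library or KD library 3. No fold of SAA4 is given for that comparison, since the scramble libraries were at 0. The called values include SAA4 in both KD comparisons, where it passed the filter through the KD libraries alone. filterByExpr, and leaving out KD library 1, kept SAA4 out of that fit. Of the 23 values not called, 22 stayed so, and CHI3L1 after LPS in scramble control passed without scramble library 3, which took the count of members called there from 0 to 1. Calls of listed genes in the interaction numbered 3, and 7 in DESeq2, 8 without a filter and 5 with the replicate block. Over all genes the interaction called 219, against 475 in DESeq2, 431 without a filter, 92 to 243 with 1 library left out and 139 without library 3 of both KD groups, an alternative chosen after the data were seen. Library size alone moved the median of all genes by up to 0.13 (log2). The numbers of the libraries were not taken as pairs, since deviations of same-numbered libraries correlated at -0.10 to 0.25, and the block changed no other call of a member. Depth limits LCN2, ORM1 and SAA4.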
